A study of Mus musculus with 9 samples.

Results

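Gene expression was compared between the GFP-positive and the GFP-negative Lin-Sca1+cKit+ (LSK) cells of mice that had been transplanted with transduced marrow cells, whose vector carried the transgene of the study. The rule took the 3 arrays of each fraction, 6 of the 9 arrays of the series, and all 45037 probe sets that are not controls, of 45101. The control mice of the series, which received wild-type cells, entered 1 alternative fit only. Donor and host were both of the C57BL/6 strain. Lineage-negative marrow cells were stimulated in culture with SCF, thrombopoietin, FGF-1 and IGF2, transduced with a retroviral vector and injected into hosts irradiated with 10 Gy. LSK cells were sorted into both fractions 8 weeks later. Each array held the pooled marrow of 2 to 5 mice. Both fractions were taken from transplanted, irradiated hosts. The labels give neither the promoter of the vector nor whether the GFP-negative cells were untransduced donor cells, surviving host cells or cells with a silenced vector, so the fractions may differ in more than the marker. Nothing in them ties a GFP-positive array to a GFP-negative array of its number, so p-values measure the spread between these pools.

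Hematopoietic stem cells (HSCs) and multipotent progenitors make up the LSK compartment of the marrow. Cytokine receptors without a kinase of their own signal in these cells through kinases such as JAK2, which activate the STAT5 transcription factors and the RAS and PI3-kinase pathways. A transplanted stem cell that carries an integrated vector passes it to its progeny, and a fluorescent protein such as GFP, delivered with the transgene, lets cells that carry the vector be sorted from those that do not.

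The annotation used here names no probe set for Ly6a, the gene of Sca1, and neither the transgene nor GFP was analysed, so the labels were not checked against them. Values below are log2 RMA levels, given in the order of arrays 1, 2 and 3 of each fraction, and a difference is GFP-positive minus GFP-negative with its standard error (SE) from limma. Kit, the receptor used in the sort, was at 8.17, 6.38 and 8.17 on the GFP-positive arrays and 8.02, 8.22 and 7.92 on the GFP-negative arrays. It was 6.38 on GFP-positive array 2 and no lower than 7.92 on any other array. Cd34, a surface sialomucin of progenitors, lay between 9.31 and 10.49, and Flt3, the receptor of multipotent and lymphoid-primed progenitors, between 8.67 and 9.28, with overlapping fractions. Of the lineage genes that the sort removes, Cd3e lay between 3.27 and 4.77, near the level of 4.01 below which genes were not tested. Itgam, the gene of CD11b, lay between 3.68 and 5.85 and was above that level on some arrays.

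GFP-positive array 2 stood apart. Its correlation with the other 5 arrays was 0.905 to 0.913 over all probe sets, against 0.941 to 0.970 among those 5, its array weight in limma was 0.334 against 0.651 to 2.87, and Gapdh read higher at its 3′ than at its 5′ control probe set by 3.22 against 2.47 to 2.89. GFP-positive array 3 correlated with the GFP-negative arrays at 0.958 to 0.970, above the 0.945 to 0.958 among the GFP-negative arrays themselves. The median SD of a gene was 0.441 among the GFP-positive arrays, 0.282 without array 2, and 0.334 among the GFP-negative arrays.

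No gene or probe set separated cells with the marker from cells without it at the threshold of 0.05. Of 12358 genes tested in limma, 0 (0.0%) passed after Benjamini-Hochberg adjustment, and the smallest adjusted p was 0.965. Of 45037 probe sets, 0 (0.0%) passed, with a smallest adjusted p of 0.999. At an unadjusted p under 0.05 there were 396 genes (3.2%), 220 higher in GFP-positive cells (1.78%) and 176 lower (1.42%), where a flat distribution of p would give 618. The same count over probe sets was 1322 (2.94%). The GFP-positive and GFP-negative arrays did not overlap for 794 genes (6.42%), where 3 against 3 exchangeable arrays without ties would be apart with a probability of 0.1. Of the 794 genes, 497 (4.02% of those tested) were higher and 297 (2.4%) lower in GFP-positive cells. These shares are the background against which each gene group below is read. The list medians below kept their sign in every alternative tried for 12 of the 38 lists. The median gene differed by 0.014, 51.7% of genes were higher in GFP-positive cells, and 630 (5.1%) differed by 1 or more in size. The 95% interval of a typical gene reached 0.80 to either side of its difference, and 0 of the 630 genes that differed by 1 or more passed the test with 3 arrays a fraction. Each value below is that of the gene's brightest probe set. Of 250 named genes, 134 had another value by the mean of their probe sets, which differed by more than 1.5 times in 98, being smaller in 74, larger in 8 and of opposite sign in 16.

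**Figure D1:**
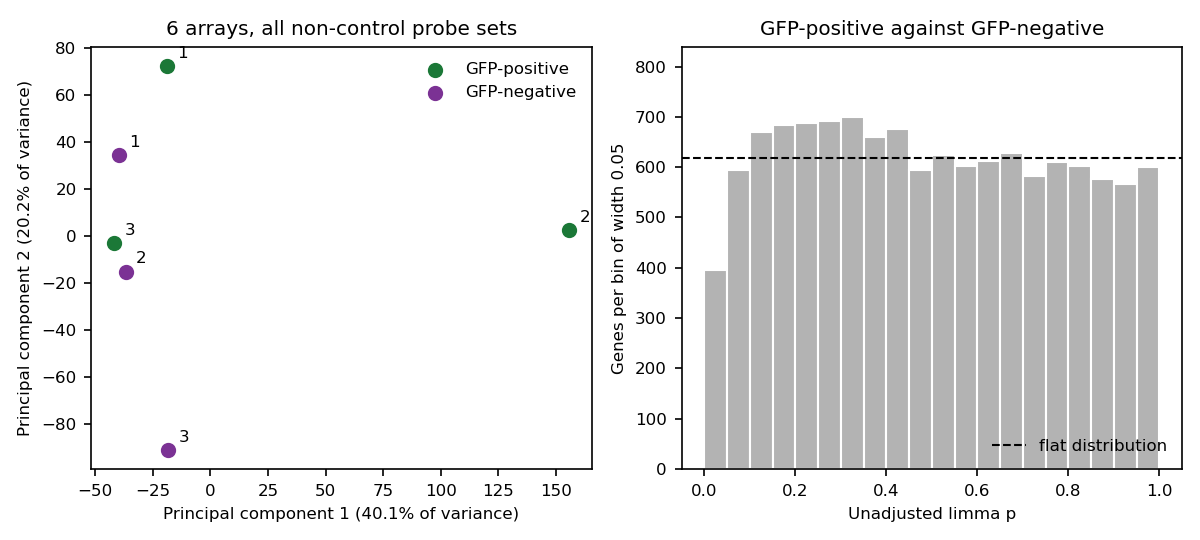
The left panel plots the 6 arrays on the first 2 principal components of all non-control probe sets, which hold 40.1% and 20.2% of the variance. GFP-positive array 2 (green) lies alone on the first axis, and the other arrays of both fractions lie together there. The right panel counts the 12358 genes in 20 bins of unadjusted limma p, with a dashed line at the flat 618, and the lowest bin holds 396.

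Genes that define HSCs were mixed. Of 37 tested members of the HSC identity list, 25 were lower in GFP-positive cells by point estimate, the median difference was -0.18, and 0 passed. The arrays did not overlap for 6 members, 3 lower (8.11% of the list) and 3 higher (8.11%). With the mean of each gene's probe sets 1 was lower (2.86%) and 2 higher (5.71%). The median was -0.023 without GFP-negative array 2, and without GFP-positive array 3 there were 10 lower members apart (27.0%, against 12.4% of all genes). Leaving out any other single array gave 4 to 7 lower members apart (10.8% to 18.9%, against 4.26% to 6.93% of all genes). In the brightest probe sets the lower ones were transcriptional regulators and the higher ones surface proteins. Mllt3, a chromatin reader that maintains HSCs, was at 7.29, 7.50 and 7.65 on the GFP-positive arrays and 7.92, 8.49 and 8.56 on the GFP-negative arrays. Every GFP-positive array was below every GFP-negative one, and the difference was -0.84 ± 0.26 (95% interval -1.45 to -0.23), or -0.29 with the mean of its probe sets. Hlf, a PAR bZIP factor highly restricted to stem cells, was at 8.72, 5.96 and 8.77 on the GFP-positive arrays and 9.38, 9.13 and 9.08 on the GFP-negative arrays. Its difference of -1.38 ± 0.75 rested largely on GFP-positive array 2 and was -0.45 without it. Fli1, an ETS factor of stem cells and megakaryocytes, was at 7.23, 7.50 and 8.23 on the GFP-positive arrays and 8.30, 8.45 and 8.23 on the GFP-negative arrays, and the third array of both fractions lay at nearly the same level (-0.67 ± 0.30, or -0.23 with the mean of its probe sets).

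Procr, the endothelial protein C receptor and a surface marker of HSCs, was at 6.46, 7.05 and 6.09 on the GFP-positive arrays and 5.56, 5.93 and 5.43 on the GFP-negative arrays. All GFP-positive arrays were above all GFP-negative arrays, with a mean difference of 0.89 ± 0.31 (95% interval 0.16 to 1.63). Esam, an adhesion molecule of HSCs and endothelium, was at 5.63, 5.53 and 5.53 on the GFP-positive arrays and 5.38, 4.67 and 4.00 on the GFP-negative arrays (0.88 ± 0.36). The GFP-negative arrays spread over more than 1 unit and the GFP-positive arrays over about 0.1. Tek, the angiopoietin receptor that also marks HSCs, did not share this pattern. Its mean lay below the filter, and its levels of 2.17, 6.41 and 4.13 on the GFP-positive arrays and 4.99, 2.03 and 2.94 on the GFP-negative arrays overlapped over nearly their whole range. Slamf1, the SLAM receptor CD150, was below the filter too, at 3.26, 6.54 and 3.25 on the GFP-positive arrays and 3.71, 4.17 and 2.64 on the GFP-negative arrays, with 1 high array, GFP-positive 2. Sdc1, a heparan sulfate proteoglycan, was higher by 0.36 ± 0.23 (-0.22 with the mean of its probe sets), and Vldlr, a lipoprotein receptor, differed by -1.59 ± 0.82 with values from 6.29 to 9.85 in GFP-positive cells.

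Other regulators of stem cells were lower by point estimate with overlapping arrays. Mecom, a zinc finger factor required for HSCs, differed by -0.60 ± 0.43, the homeobox genes Meis1 and Hoxa9 by -0.58 ± 0.44 and -0.51 ± 0.39, and Prdm16, a histone methyltransferase that maintains HSCs, by -0.19 ± 0.34. Gata2 differed by -0.19 ± 0.26. The 3 probe sets of Mycn, a MYC family factor, did not give 1 answer. The brightest was at 6.78, 8.04 and 6.70 on the GFP-positive arrays and 7.27, 7.54 and 7.12 on the GFP-negative arrays and differed by -0.14 ± 0.40. Another was at 6.22, 6.82 and 7.10 on the GFP-positive arrays and 5.04, 3.89 and 4.01 on the GFP-negative arrays, higher in GFP-positive cells by 2.40, and the third differed by -1.40. No direction is given for Mycn.

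**Figure D2:**
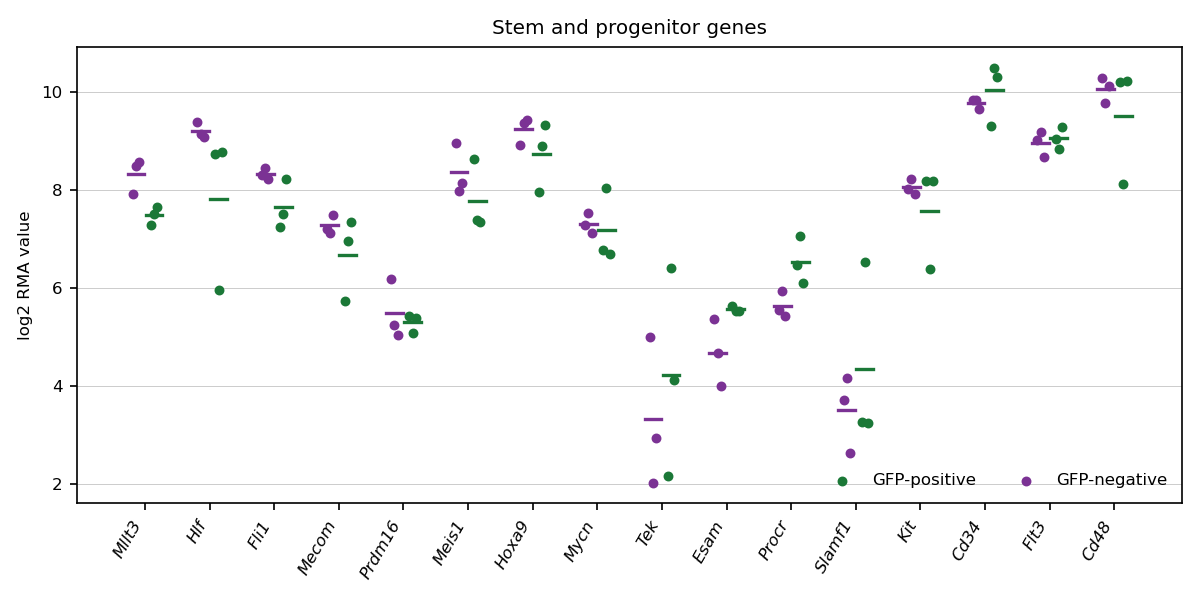
Points are the log2 RMA values of the 6 arrays (green GFP-positive, purple GFP-negative) and bars the group means, for genes of stem and progenitor cells. Mllt3, Hlf and Fli1 have every GFP-positive array below the GFP-negative ones, Esam and Procr have every GFP-positive array above, and the other genes overlap.

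Cytokine receptor signalling showed no common direction. Of 32 tested members of the JAK-STAT list, 14 were higher and 18 lower, with a median of -0.04 and 0 past the threshold. The arrays did not overlap for 1 member in each direction (3.12% each, against 4.02% and 2.4% of all genes). Jak2, a kinase bound to cytokine receptors, was at 6.87, 7.46 and 7.54 on the GFP-positive arrays and 8.25, 7.56 and 7.62 on the GFP-negative arrays. All GFP-positive arrays were lower, but by less than 0.1 between the nearest arrays of both fractions, and the difference was -0.52 ± 0.30. Inpp5d, the lipid phosphatase SHIP1 that limits PI3-kinase signalling, was higher by 0.33 ± 0.22. Stat5b, a target of JAK2, differed by -0.52 ± 0.30 and Stat5a by -0.075 ± 0.29. Ptpn6, the phosphatase SHP1 that dampens cytokine receptors, differed by 0.49 ± 0.28.

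Genes that STAT5 switches on after cytokine gave values on both sides of 0. Cish, a feedback inhibitor of cytokine signalling, was at 5.47, 4.66 and 4.93 on the GFP-positive arrays and 4.62, 4.70 and 4.50 on the GFP-negative arrays. GFP-positive array 1 was the highest and array 2 lay within the GFP-negative range (0.41 ± 0.27). The kinase genes Pim1, Pim2 and Pim3, which promote survival, differed by -0.47 ± 0.40, -0.41 ± 0.23 and -0.88 ± 0.52. Bcl2l1, the survival factor BCL-XL, differed by 0.034 ± 0.20 (95% interval -0.44 to 0.51). Socs3 ranged from 2.26 to 7.04 within GFP-positive cells and gave no usable difference, and Socs2 lay below the filter. STAT5 binds TTC and GAA with 3 bases of any kind between them, a motif that reads alike on both strands. It stands in 4 of 29 list members' promoters in RefSeq (Gab1, Socs3, Cish and Bcl6) and in 9.55% of all 27025 genes with a window. The window of Cish, chr9:107296409-107296708 on the plus strand of GRCm38.p6, a stretch of 300 bases around the start, is printed because Cish is the textbook STAT5 target, and holds 2 matches, in capitals.
Cish: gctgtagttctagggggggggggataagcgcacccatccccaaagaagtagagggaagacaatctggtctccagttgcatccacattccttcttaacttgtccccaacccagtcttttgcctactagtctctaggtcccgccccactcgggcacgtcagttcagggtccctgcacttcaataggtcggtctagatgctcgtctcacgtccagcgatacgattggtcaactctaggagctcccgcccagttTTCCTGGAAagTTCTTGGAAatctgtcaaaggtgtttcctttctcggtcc

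Genes of protein folding in the endoplasmic reticulum (ER) were mostly higher, by small amounts. Secretory and membrane proteins fold in the ER, and when folding fails the sensors PERK, IRE1 and ATF6 raise the expression of chaperones, the unfolded protein response. Of 30 tested members, 21 were higher in GFP-positive cells, with a median of 0.19 against 0.014 for all genes. The arrays did not overlap for 7 members (23.3%), all higher, against 4.02% of all genes. No member passed the test, and the mean level of the list overlapped between fractions, at 8.30, 7.94 and 8.43 in GFP-positive and 8.07, 8.13 and 8.03 in GFP-negative cells. Without GFP-positive array 2, 11 members (36.7%) were apart, against 8.36% of all genes, and with the mean of each gene's probe sets 4 (13.3%) against 3.88%. Leaving out any other single array gave 7 to 10 apart and higher (23.3% to 33.3%, against 7.88% to 12.1% of all genes). Without GFP-positive array 3, 3 members were also apart and lower (10.0%, against 12.4% of all genes).

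The 7 genes were chaperones and folding enzymes, sensors, a transcription factor and a secreted protein. Calr, the lectin chaperone calreticulin, was at 12.03, 11.94 and 12.00 on the GFP-positive arrays and 11.59, 11.58 and 11.48 on the GFP-negative arrays. Both fractions were tight, and they differed by 0.44 ± 0.19 (95% interval -0.015 to 0.89). Pdia4, a protein disulfide isomerase, was at 7.89, 8.11 and 7.64 on the GFP-positive arrays and 7.47, 6.84 and 7.47 on the GFP-negative arrays (0.62 ± 0.27). Creld2, a secreted ER stress protein, was at 9.38, 8.81 and 8.64 on the GFP-positive arrays and 8.57, 8.59 and 8.14 on the GFP-negative arrays (0.51 ± 0.28). Dnajc3, a J-domain co-chaperone of BiP and an inhibitor of PERK, differed by 0.34 ± 0.20. Of the sensors and their factors, Atf6 was at 7.32, 6.92 and 7.82 on the GFP-positive arrays and 6.87, 6.79 and 5.45 on the GFP-negative arrays, with 1 low GFP-negative array (0.98 ± 0.45). Atf4, the factor translated when PERK is active, was at 10.84, 10.70 and 10.54 on the GFP-positive arrays and 10.42, 10.33 and 10.22 on the GFP-negative arrays (0.37 ± 0.20). Eif2ak3, the gene of PERK, was higher by 0.19 ± 0.19. With the mean of their probe sets Atf6 differed by 0.23, Pdia4 by 0.19, Atf4 by 0.12, Dnajc3 by 0.22 and Eif2ak3 by 0.54.

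Members outside these 7 were less uniform. Syvn1, the ubiquitin ligase HRD1 that removes misfolded proteins, had the smallest p of the list and was at 7.55, 6.57 and 7.16 on the GFP-positive arrays and 6.11, 6.60 and 5.99 on the GFP-negative arrays, where 1 pair of arrays crossed (0.87 ± 0.32). Xbp1, the factor spliced by IRE1, differed by 0.54 ± 0.31. Hspa5, the chaperone BiP and the most used readout of the response, differed by 0.15 ± 0.20 (95% interval -0.33 to 0.63), and Ddit3, the factor CHOP that is switched on by lasting stress, by 0.065 ± 0.20. With the mean of their probe sets Hspa5 differed by 0.38, Ddit3 by 0.46, Syvn1 by 0.43 and Xbp1 by 0.27, so the order of these genes depends on the probe sets used.

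Several of these genes share a promoter element. The ER stress response element, CCAAT and CCACG with 9 bases of any kind between them, on either strand, lies in 8 of 27 list members with a RefSeq promoter window (Hspa5, Hsp90b1, Calr, Canx, Pdia6, Dnajc3, Creld2 and Syvn1) and in 37 of all 27025 genes (0.137%). It stands in 3 of the 6 members with a window whose arrays were apart. The list is one of ER stress genes, so a match describes the genes and not their level here, and Hspa5 and Canx carry it too. The windows of the 3 genes are printed to show the shared element, in capitals, each 300 bases around the start (RefSeq, GRCm38.p6, 5′ to 3′ on the gene's strand). Calr lies at chr8:84846882-84847181 (minus strand), Creld2 at chr15:88819396-88819695 (plus strand) and Dnajc3 at chr14:118937682-118937981 (plus strand).
Calr: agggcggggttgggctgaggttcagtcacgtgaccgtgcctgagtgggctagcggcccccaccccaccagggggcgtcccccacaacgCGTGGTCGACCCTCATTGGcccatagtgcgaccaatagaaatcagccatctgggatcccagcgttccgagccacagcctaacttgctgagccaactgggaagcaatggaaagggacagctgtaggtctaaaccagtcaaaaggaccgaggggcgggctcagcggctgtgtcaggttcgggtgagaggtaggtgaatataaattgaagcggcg
Creld2: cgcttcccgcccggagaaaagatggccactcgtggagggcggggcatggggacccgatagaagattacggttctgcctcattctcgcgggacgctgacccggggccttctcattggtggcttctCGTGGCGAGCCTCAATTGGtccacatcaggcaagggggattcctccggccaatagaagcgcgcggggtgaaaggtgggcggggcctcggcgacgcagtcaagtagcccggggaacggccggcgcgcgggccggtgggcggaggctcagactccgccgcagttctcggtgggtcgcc
Dnajc3: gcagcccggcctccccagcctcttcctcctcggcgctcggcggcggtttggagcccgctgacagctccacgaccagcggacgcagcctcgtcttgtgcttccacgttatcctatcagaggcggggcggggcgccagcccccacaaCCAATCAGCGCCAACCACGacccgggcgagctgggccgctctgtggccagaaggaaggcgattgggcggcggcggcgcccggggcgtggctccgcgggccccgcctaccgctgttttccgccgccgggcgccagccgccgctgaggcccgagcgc

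The largest shift of any list by its median was in genes of granulocytes, and it lay within the spread between arrays. Of 22 tested members, 20 were higher in GFP-positive cells, with a median of 0.80. The arrays overlapped for every member (0 of 22, against 4.02% of all genes), and 0 had an unadjusted p under 0.05. Without GFP-negative array 1 there were 14 members apart (63.6%, against 8.36% of all genes), all higher. Leaving out any other single array gave only 0 to 3 apart and higher (0.0% to 13.6%, against 7.88% to 12.1% of all genes). The list's mean level was 10.27, 9.29 and 8.98 on the GFP-positive arrays and 9.78, 8.67 and 8.12 on the GFP-negative arrays. Arrays of 1 fraction differed from each other by more than the fractions did, and the median was 0.27 without GFP-positive array 1 and 1.37 without GFP-negative array 1. In bulk RNA, fewer cells of a type and less RNA per cell cannot be told apart.

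Several listed genes are those of late granulocytes. Ltf, the secondary granule protein lactoferrin, was at 11.71, 10.70 and 9.84 on the GFP-positive arrays and 11.41, 9.66 and 8.39 on the GFP-negative arrays. S100a8, a calcium-binding protein that fills the cytoplasm of neutrophils, was at 13.47, 12.63 and 12.38 on the GFP-positive arrays and 13.22, 11.78 and 11.02 on the GFP-negative arrays (0.82 ± 0.59). Camp, Ngp and Lcn2, further secondary granule genes, differed by 0.90 ± 0.65, 1.15 ± 0.72 and 0.80 ± 0.68. Cxcr2, the chemokine receptor of mature neutrophils, had the smallest p of the list, at 8.74, 8.59 and 6.82 on the GFP-positive arrays and 7.53, 5.88 and 6.02 on the GFP-negative arrays (1.57 ± 0.66). Primary granule genes are made earlier, by progenitors. Mpo, myeloperoxidase, differed by -0.021 ± 0.25 (95% interval -0.62 to 0.57), Elane, neutrophil elastase, by 0.18 ± 0.56 and Ctsg, cathepsin G, by 0.15 ± 0.27. Elane differed by 0.80 without GFP-positive array 2 and by -0.18 without GFP-positive array 1, and early and late granule genes were not tested against each other.

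**Figure D3:**
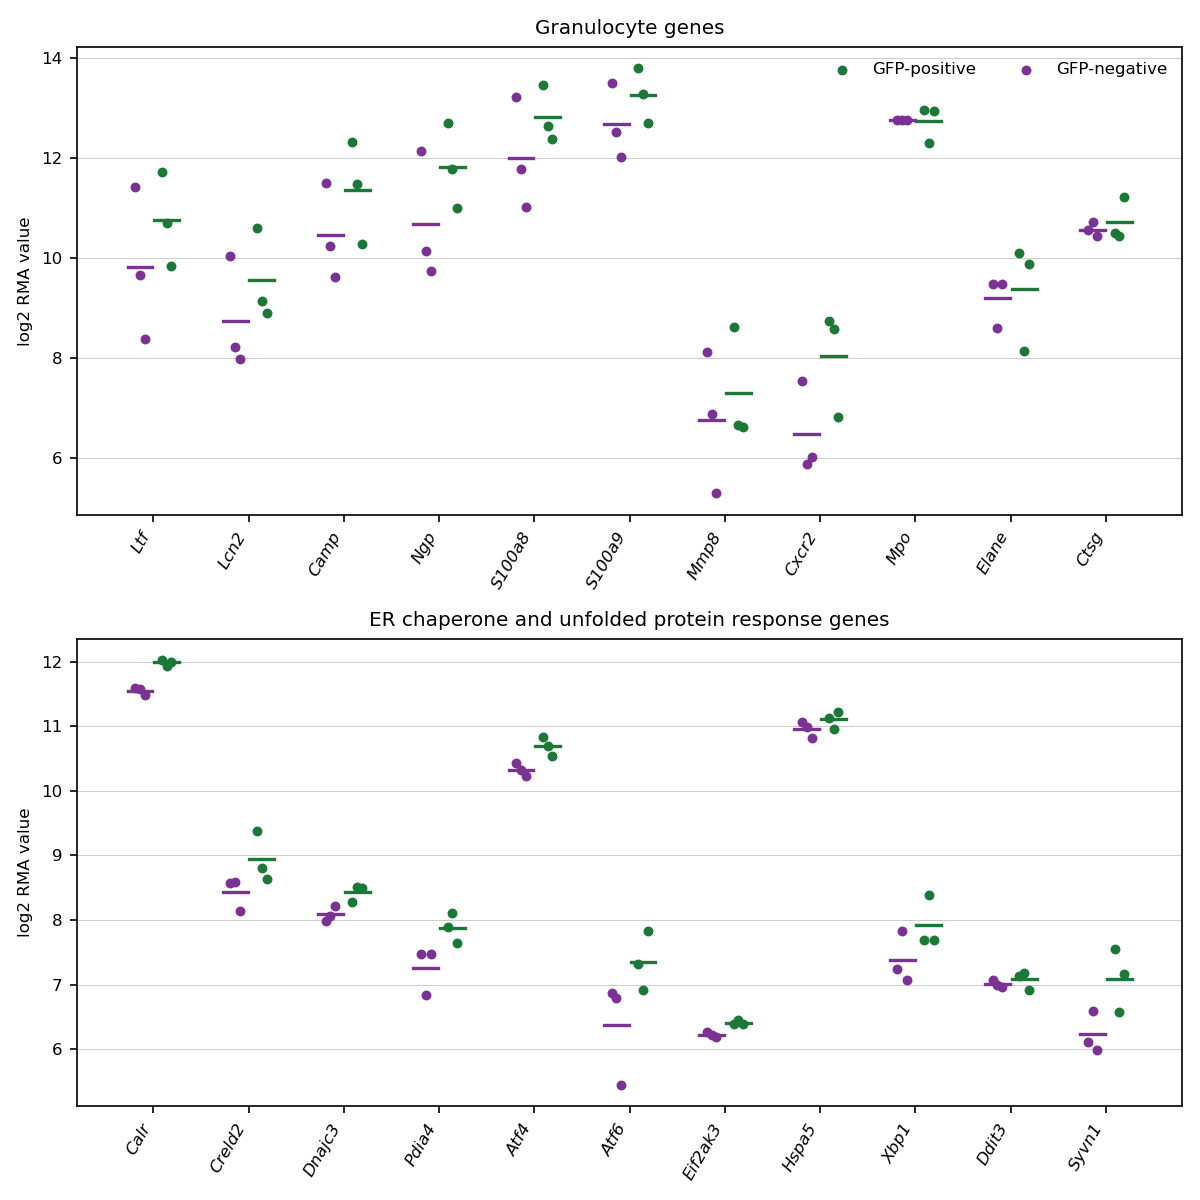
Points are the log2 RMA values of the 6 arrays (green GFP-positive, purple GFP-negative) and bars the group means. In the upper panel the arrays of both fractions overlap for every granulocyte gene, the means of Mpo, Elane and Ctsg are close, and the other means are higher in GFP-positive cells. In the lower panel the arrays of Calr, Creld2, Dnajc3, Pdia4, Atf4, Atf6 and Eif2ak3 do not overlap, and those of Hspa5, Xbp1, Ddit3 and Syvn1 do.

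Genes of myeloid priming, which progenitors express at low level before commitment, were higher by point estimate in 18 of 26, with a median of 0.18. The arrays did not overlap for 3 of them (11.5%), all higher. The median was -8.6e-05 without GFP-positive array 1 and 0.47 without GFP-positive array 2, where 10 members (38.5%) were apart, all higher, against 8.36% of all genes. Leaving out any other single array gave 3 to 4 members apart and higher (11.5% to 15.4%, against 7.88% to 12.1% of all genes). Calr is one of the 3. Fcgr3, an Fc gamma receptor of myeloid cells, was at 7.65, 7.08 and 7.51 on the GFP-positive arrays and 6.86, 6.86 and 6.86 on the GFP-negative arrays, where the equal GFP-negative values are ties that the summary of probes can make and that understate the spread (0.55 ± 0.23). Csf2ra, the GM-CSF receptor chain, was at 9.03, 8.55 and 8.27 on the GFP-positive arrays and 8.11, 7.97 and 7.96 on the GFP-negative arrays (0.60 ± 0.25). Among monocyte and macrophage genes 14 of 20 were higher (median 0.13, 0 apart), and among mast cell and basophil genes 10 of 15 (median 0.27, 0 apart). Csf1r, the receptor of macrophage colony-stimulating factor, was at 10.83, 3.62 and 9.62 on the GFP-positive arrays and 8.93, 7.19 and 9.51 on the GFP-negative arrays, and the value on GFP-positive array 2 was the lowest by far.

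B-lymphoid genes lay on both sides of 0. Of 20 tested B cell genes 12 were higher (median 0.13), and 2 were apart in each direction (10.0% each). Ms4a1, the B cell surface protein CD20, was at 6.28, 6.38 and 5.93 on the GFP-positive arrays and 3.63, 3.98 and 1.56 on the GFP-negative arrays. This was the largest difference among the genes named here, 3.14 ± 0.62 (95% interval 1.65 to 4.63, limma adjusted p = 0.965), and 1 GFP-negative array lay far below the others. The other probe set of Ms4a1 differed by only 0.15, and the mean of its probe sets by 1.65. Rag1 and Rag2, neighbouring genes of the recombinase that assembles antigen receptors and usually expressed together, stood on opposite sides. Rag1 was at 7.78, 6.51 and 6.29 on the GFP-positive arrays and 5.37, 6.12 and 4.57 on the GFP-negative arrays (1.50 ± 0.54). Rag2 was at 4.93, 5.14 and 5.63 on the GFP-positive arrays and 6.53, 7.02 and 5.89 on the GFP-negative arrays (-1.25 ± 0.35). Fcrl1, an Fc receptor-like protein of B cells, was the other lower member apart (-0.29 ± 0.19). It had 1 value of 5.04 on all GFP-positive arrays, a tie that understates the spread.

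Pax5, the factor that commits cells to the B lineage, was at 7.60, 9.45 and 4.89 on the GFP-positive arrays and 5.43, 4.00 and 4.63 on the GFP-negative arrays. Its mean difference of 2.63 ± 1.09 came from GFP-positive arrays 1 and 2, while array 3 lay among the GFP-negative arrays. With the mean of its probe sets Pax5 differed by 1.56. Ebf1, its partner in commitment, was high on GFP-positive array 2 alone (8.80, against at most 6.55 elsewhere). Cd79a, a chain of the B cell receptor, differed by 0.59 ± 0.75 and Cd79b by -0.33 ± 0.48. Ighm, the immunoglobulin mu heavy chain, differed by -1.28 ± 0.82, and Pou2af1, a B cell coactivator, by 1.75 ± 0.82. Genes of multipotent and lymphoid-primed progenitors were higher in 12 of 27 (median -0.11). T and NK cell genes were higher in 7 of 13 (median 0.023, 0 apart) and dendritic cell and MHC class II genes in 9 of 16 (median 0.014). Itgax, the integrin CD11c, was at 4.97, 6.79 and 5.01 on the GFP-positive arrays and 3.96, 3.90 and 3.99 on the GFP-negative arrays (1.64 ± 0.50). The dendritic cell list had 1 member apart in each direction (6.25% each, against 4.02% and 2.4% of all genes). Its member Zbtb46 went the other way, by -1.32, or -0.56 with the mean of its probe sets.

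Megakaryocyte genes, those of the platelet-forming lineage, were higher in 12 of 20 with a median of 0.09. Pf4, platelet factor 4, was at 5.93, 4.08 and 7.17 on the GFP-positive arrays and 7.20, 6.37 and 6.89 on the GFP-negative arrays, with its low value on GFP-positive array 2 (-1.10 ± 0.74). Itga2b, the integrin CD41, differed by 0.21 ± 0.26 (95% interval -0.42 to 0.84) and Gp9, a chain of the von Willebrand receptor, by -0.27 ± 0.22. Thbs1, thrombospondin, was the 1 member apart (5.0%), at 5.05, 4.80 and 4.24 on the GFP-positive arrays and 4.02, 3.63 and 4.17 on the GFP-negative arrays. Ppbp, platelet basic protein, lay below the filter at 2.56, 2.05 and 2.74 on the GFP-positive arrays and 5.59, 3.66 and 2.97 on the GFP-negative arrays.

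Erythroid genes were higher in 20 of 31 with a median of 0.12. The list's mean level did not overlap, at 6.58, 6.73 and 6.79 against 6.57, 6.53 and 6.51, though the nearest arrays of both fractions were almost equal. Uros, an enzyme of heme synthesis, was the 1 member apart (3.23%; 0.57 ± 0.28). Slc4a1, the band 3 anion exchanger, was at 7.59, 8.87 and 6.96 on the GFP-positive arrays and 7.34, 7.05 and 5.94 on the GFP-negative arrays (1.03 ± 0.58), and Car1, carbonic anhydrase, differed by -0.13 ± 0.33. Gata1 differed by -0.37 ± 0.65. Endothelial and stromal genes were higher in 11 of 18 (median 0.15, 0 apart). Their defining markers Cdh5 and Kdr lay between 3.64 and 4.16 on all arrays.

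Quiescence genes, which hold stem cells out of the cell cycle, were higher in 20 of 30, with a median of 0.14. Mean levels of the list did not overlap, at 7.25, 7.02 and 7.15 in GFP-positive and 6.98, 6.77 and 6.96 in GFP-negative cells. The nearest arrays, at 7.02 and 6.98, were almost equal. Of the 38 lists, 3 had mean levels that did not overlap, the quiescence, erythroid and p53 lists. The arrays were apart for 4 quiescence members (13.3%, against 4.02% of all genes), all higher. Ets1, an ETS factor, was at 6.62, 5.28 and 6.24 on the GFP-positive arrays and 5.11, 4.47 and 4.79 on the GFP-negative arrays (1.26 ± 0.39). Rbl1, the retinoblastoma relative p107, differed by 0.66 ± 0.26 (-0.40 with the mean of its probe sets), and Klf2, a Kruppel-like factor of resting cells, by 0.52 ± 0.29. Junb, an AP-1 factor that restrains HSC proliferation, differed by 0.17 ± 0.19, with the same value of 4.78 on all GFP-positive arrays. As for Fcgr3, such a tie understates the spread. Cdkn1b, the cell cycle inhibitor p27, differed by 0.52 ± 0.34, and Cdkn1c, the inhibitor p57, lay below the filter at 3.74, 3.26 and 3.20 on the GFP-positive arrays and 3.35, 2.89 and 3.21 on the GFP-negative arrays.

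Genes of cycling cells differed little. G2/M and mitosis genes were lower in 19 of 36 (median -0.055) and G1/S and DNA replication genes in 20 of 37 (median -0.11). Mki67, the proliferation antigen Ki-67, was at 12.49, 12.37 and 12.04 on the GFP-positive arrays and 11.96, 12.26 and 12.15 on the GFP-negative arrays (0.18 ± 0.22). Prc1, a spindle midzone protein, differed by -0.90 ± 0.35, and Plk1, a mitotic kinase, by 0.51 ± 0.26. The D-type cyclins, G1 kinases and RB family were higher in 13 of 20 (median 0.13). Ccnd1, cyclin D1, was at 7.30, 7.23 and 7.40 on the GFP-positive arrays and 7.63, 7.78 and 8.63 on the GFP-negative arrays (-0.70 ± 0.31, or -0.22 with the mean of its probe sets). Immediate early genes were lower in 17 of 28 (median -0.10, and 0.13 without GFP-positive array 2). The 3 members apart (10.7%, against 4.02% of all genes), Zfp36, Klf2 and Junb, were all higher. With the mean of probe sets 5 were apart and higher (18.5%, against 3.88%). Klf2 and Junb are also among the quiescence genes above, so the 2 lists are not separate. Zfp36, which speeds the decay of cytokine mRNA, was at 11.91, 11.70 and 11.62 on the GFP-positive arrays and 10.97, 11.10 and 11.34 on the GFP-negative arrays, apart and higher by 0.61 ± 0.21. Egr1 differed by -0.44 ± 0.43, Fos by -0.49 ± 0.56 and Nr4a1 by 0.30 ± 0.41.

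Genes that act on integrated retroviruses were listed as well. Those of retroviral restriction and silencing, which keep proviruses inactive, were lower in 20 of 37 with a median of -0.006 and 1 member apart (2.70%), the chromatin remodeller Hells (-1.12 ± 0.66). The median was -0.21 with the mean of probe sets, -0.16 with array weights and 0.014 without GFP-positive array 2, so its sign was not kept. It was -0.16 without GFP-positive array 3, where 9 members (24.3%) were apart and lower, against 12.4% of all genes. Leaving out any other single array gave 1 to 6 members apart and lower (2.70% to 16.2%, against 4.26% to 6.93% of all genes). Zfp809, which recruits silencing complexes to the primer binding site of murine retroviruses, was at 7.83, 7.12 and 8.58 on the GFP-positive arrays and 8.65, 8.54 and 9.31 on the GFP-negative arrays (-0.99 ± 0.42). Setdb1, the histone methyltransferase of that complex, differed by -0.89 ± 0.47, or -0.19 with the mean of its probe sets. Mov10, an RNA helicase that restricts retroviruses, differed by -0.91 ± 0.41, or -0.43 with the mean of its probe sets. GFP-positive array 3 overlapped the GFP-negative range for Zfp809 and Setdb1. Genes at sites of recurrent retroviral insertion in mouse leukemia were lower in 25 of 35, with a median of -0.19. Ccnd1 and Fli1 were the 2 members apart (5.71%, against 2.4% of all genes), both lower. With the mean of probe sets they differed by -0.22 and -0.23, and 0 members were apart. The median ran from -0.33 to -0.077 when 1 array was left out.

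Interferon response genes were higher in 19 of 33 (median 0.035). Rsad2, the antiviral protein viperin, was the 1 member apart (3.03%), at 7.68, 8.87 and 7.19 on the GFP-positive arrays and 7.10, 6.96 and 6.58 on the GFP-negative arrays (1.03 ± 0.45, or 0.18 with the mean of its probe sets), while Ifih1, the RNA sensor MDA5, differed by -0.96 ± 0.46 and Irf9 by -0.68 ± 0.40. TNF and NF-kB response genes were higher in 11 of 24 (median -0.054). Icam1 and Cxcl10, an adhesion molecule and a chemokine, were the 2 members apart (8.33%), both lower, with differences of -0.61 ± 0.27 and -0.98 ± 0.51. Polycomb and DNA methylation regulators were lower in 23 of 37 (median -0.16). Pcgf2, the PRC1 subunit MEL18, was at 5.99, 5.64 and 6.99 on the GFP-positive arrays and 6.94, 8.63 and 8.12 on the GFP-negative arrays (-1.69 ± 0.53) and Ring1, another PRC1 subunit, differed by -0.90 ± 0.36. Their arrays overlapped, GFP-positive array 3 being the highest of its fraction for both.

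The medians of growth and energy genes were near 0. Cytosolic ribosomal protein genes were higher in 16 of 41 (median -0.047), ribosome biogenesis genes in 18 of 43 (median -0.055), oxidative phosphorylation genes in 31 of 66 (median -0.047) and proteasome subunits in 11 of 33 (median -0.039). Without GFP-positive array 3, 17 ribosomal protein genes (41.5%) and 16 oxidative phosphorylation genes (24.2%) were apart and lower, against 12.4% of all genes. Leaving out any other single array gave at most 1 such ribosomal protein gene (2.44%) and 1 to 7 oxidative phosphorylation genes (1.52% to 10.6%). The share of all genes was then 4.26% to 6.93%. Without GFP-positive array 1, 5 ribosomal protein genes (12.2%) were apart and higher, against 9.2% of all genes. Pes1, a ribosome assembly factor, was apart and lower (-0.91 ± 0.35), as was Sdhc, a subunit of respiratory complex II (-0.71 ± 0.29), while Uqcrb, a subunit of complex III (0.29 ± 0.19, or -0.30 with the mean of its probe sets), and Atp5g3, a subunit of ATP synthase (0.49 ± 0.26), were apart and higher. Glycolysis and hypoxia genes were higher in 16 of 31 (median 0.0022), with Hk1, hexokinase, apart and higher at 8.46, 8.15 and 7.88 on the GFP-positive arrays and 7.39, 7.60 and 7.67 on the GFP-negative arrays, though the mean of its probe sets differed by -0.11. Cholesterol and fatty acid synthesis genes were higher in 13 of 28 (median -0.041, 0 apart) and heat shock and chaperone genes in 7 of 14 (median -0.041). Lysosome and autophagy genes were higher in 22 of 36 (median 0.21, 0 apart). Lamp2, a lysosomal membrane protein, had the smallest p of the list (0.60 ± 0.25, or 0.36 with the mean of its probe sets).

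Of the p53 list, 18 of 25 members were higher (median 0.16). The list's mean levels did not overlap, at 6.77, 6.83 and 6.82 against 6.63, 6.63 and 6.70, and its 2 members apart pointed opposite ways. Xpc, a damage sensor of nucleotide excision repair, was higher by 0.60 ± 0.22. Mdm2, the ubiquitin ligase that p53 induces and that degrades p53, was at 8.28, 7.03 and 8.10 on the GFP-positive arrays and 8.38, 9.32 and 9.01 on the GFP-negative arrays (-1.10 ± 0.41, or -0.48 with the mean of its probe sets). DNA repair genes were higher in 20 of 38 (median 0.064) and BCL2 family genes in 6 of 15 (median -0.053, 0 apart). Adhesion and homing genes were higher in 18 of 29 (median 0.11), TGF-beta receptors, SMADs and targets in 15 of 27 (median 0.062) and cytokine and growth factor receptors in 15 of 30 (median 0.013). Adhesion genes had 2 members apart and higher (6.90%) and 1 lower (3.45%), and receptors 2 higher (6.67%) and 1 lower (3.33%). The TGF-beta list had 1 higher (3.70%) and 0 lower, against 4.02% and 2.4% of all genes. Differences of the receptor genes ran from -1.44 to 0.83. Ifnar1, a chain of the interferon alpha and beta receptor, was apart and higher by 0.82 ± 0.31, and Id3, a target of BMP signalling, by 0.55 ± 0.24.

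**Figure D4:**
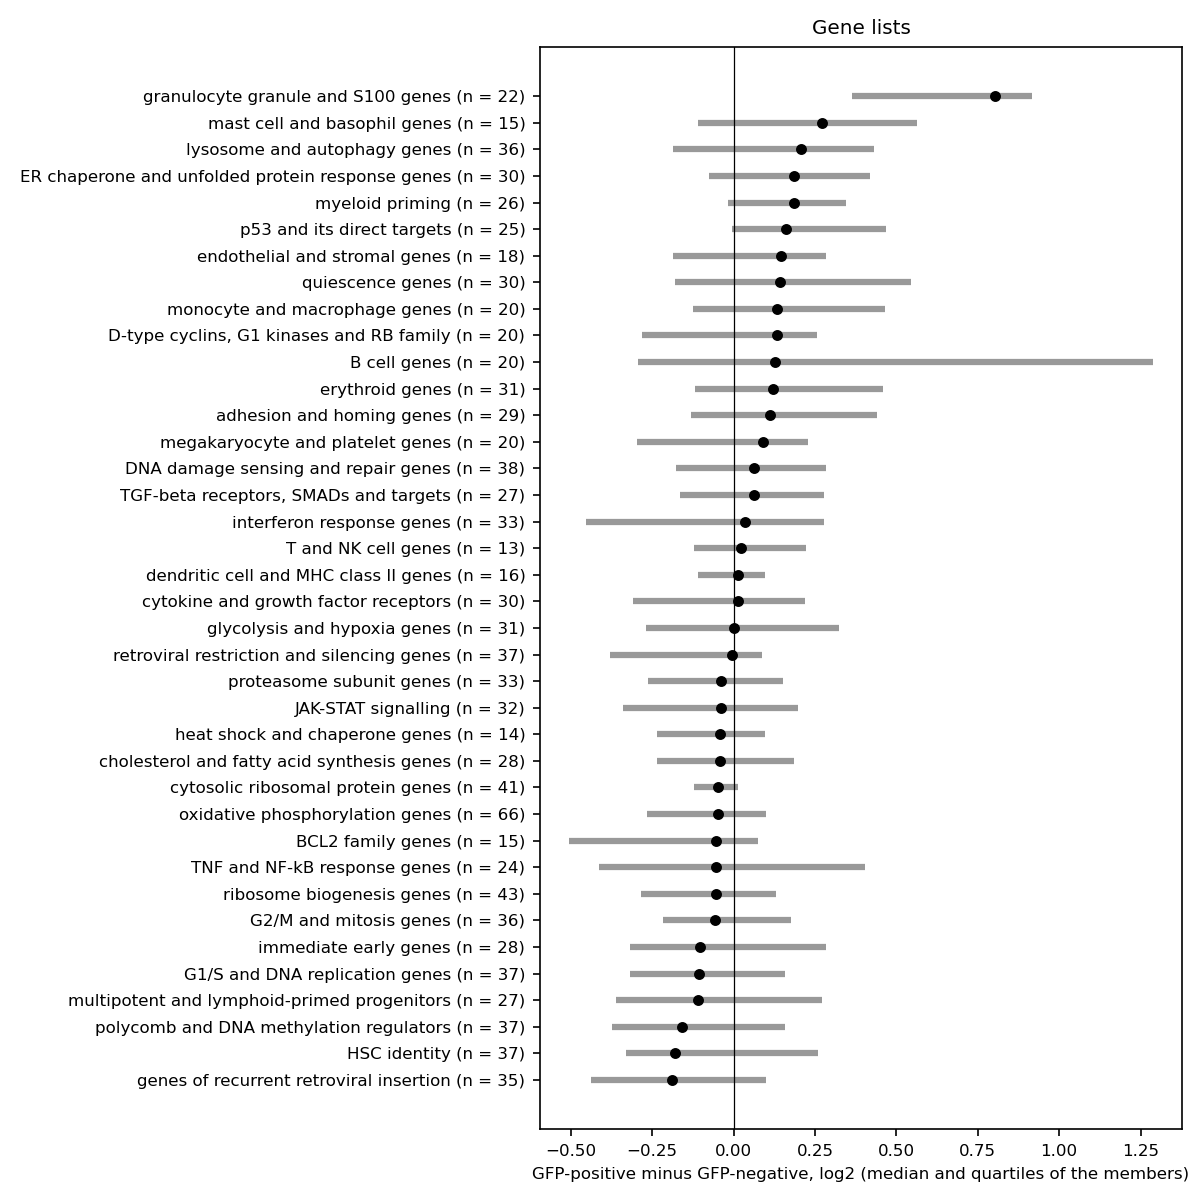
Each point is the median difference (GFP-positive minus GFP-negative, log2) of the tested members of 1 of 38 gene lists, and the grey bar spans the quartiles of the members, not an error. The granulocyte list lies farthest from 0, at 0.80, and most medians lie within 0.2 of 0.

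The genes ranked first were of no single group. They are the 10 in each direction with the smallest p among genes whose arrays did not overlap, so their separation was a condition of the choice, and each has a limma adjusted p of 0.965 or above. Trim41, an E3 ubiquitin ligase, led the higher genes, at 7.26, 6.77 and 6.46 on the GFP-positive arrays and 4.66, 5.38 and 4.75 on the GFP-negative arrays. It has 2 probe sets, whose mean difference was 0.72 against 1.90. Sdc4, the heparan sulfate proteoglycan syndecan-4, was at 6.12, 5.82 and 5.43 on the GFP-positive arrays and 4.56, 4.55 and 4.01 on the GFP-negative arrays (1.42 ± 0.28). Chfr, a ubiquitin ligase of the mitotic checkpoint, differed by 1.02 ± 0.22 and Anxa5, the phosphatidylserine-binding annexin, by 1.12 ± 0.25, with values of 8.17, 8.55 and 7.86 on the GFP-positive arrays and 7.12, 6.97 and 7.15 on the GFP-negative arrays. The remaining higher genes were Ms4a1 and also Bex1, B4gat1, Crot, Zfp672 and Ift140, with differences of 1.07 ± 0.23, 1.51 ± 0.33, 1.07 ± 0.24, 1.35 ± 0.31 and 0.87 ± 0.20.

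Among the lower genes, Il15, the cytokine that sustains NK and memory T cells, was at 3.76, 3.57 and 4.34 on the GFP-positive arrays and 4.91, 5.19 and 5.92 on the GFP-negative arrays (-1.45 ± 0.35). Il17rb, the receptor of IL-25, was at 5.25, 5.80 and 5.59 on the GFP-positive arrays and 6.54, 6.48 and 7.21 on the GFP-negative arrays (-1.20 ± 0.29). Pklr, the pyruvate kinase of liver and red cells, was at 6.79, 5.72 and 6.61 on the GFP-positive arrays and 8.33, 8.02 and 7.36 on the GFP-negative arrays (-1.53 ± 0.39). Cd302, a C-type lectin receptor, differed by -1.46 ± 0.28, Mdp1, a magnesium-dependent phosphatase, by -1.89 ± 0.40, and Slc25a18, a mitochondrial glutamate carrier, by -1.73 ± 0.43. The others, Rwdd1, Zc2hc1c, C730034F03Rik and Gprin3, differed by -1.81 ± 0.37, -1.46 ± 0.30, -0.95 ± 0.21 and -2.53 ± 0.57. Of these 20 genes, 11 have further probe sets, 15 in all. The further probe sets had the sign of the brightest in 6 of 15 cases, and 0 reached an unadjusted p under 0.05 with that sign, so the differences of those genes rest on single probe sets.

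**Figure D5:**
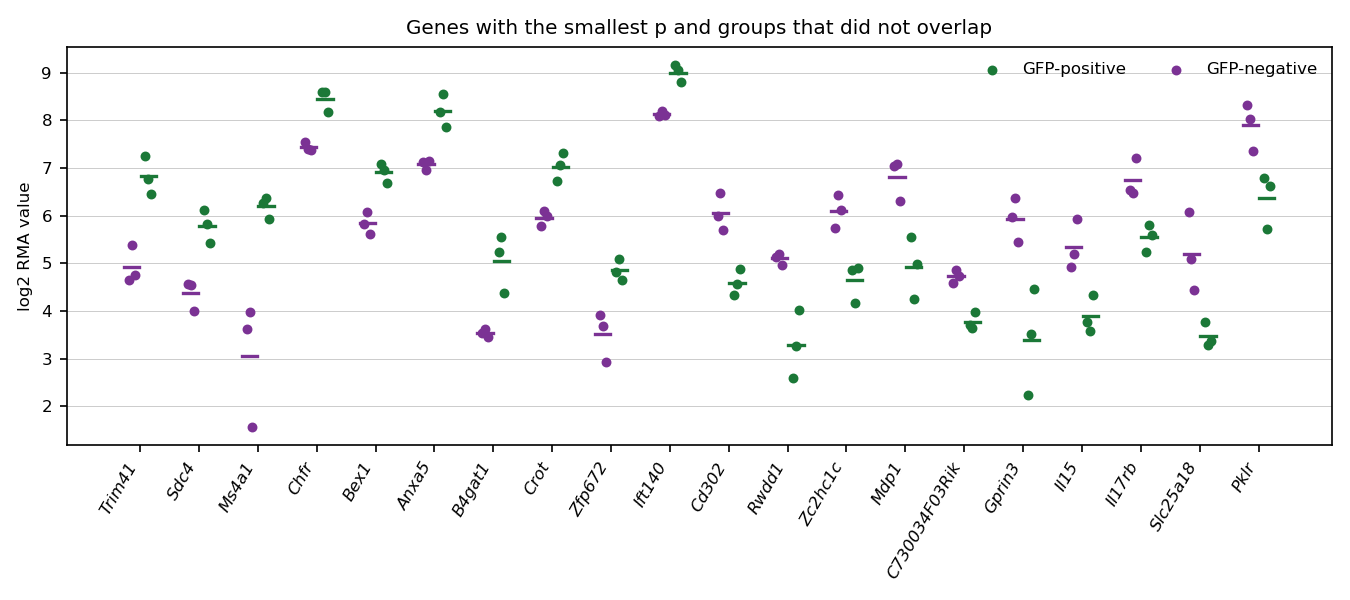
Points are the log2 RMA values of the 6 arrays (green GFP-positive, purple GFP-negative) and bars the group means, for the 10 genes in each direction with the smallest p among those without overlap. The choice requires the gap between the fractions, and none of the 20 passed the adjusted test (smallest adjusted p 0.965).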

How the data were processed

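Gene expression of the sorted fractions was measured on mouse Affymetrix arrays. The deposited values are log2 expression values computed with RMA, per the submitters' processing notes. RMA combines background correction, quantile normalization and a median polish over probes, which can give several arrays 1 value: 10884 of 45037 probe sets had 2 or more equal arrays. The transgene itself is not reported here. The genome build and the version of RMA are not given in the sources used here. The number of arrays limits the precision.

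Here, limma 3.58.1 (R 4.3.3; lmFit, eBayes) was fitted to the 6 arrays without covariates, with Benjamini-Hochberg adjustment at 0.05. The platform annotation named 1 gene for 34945 probe sets, several for 932 and none for 9160, and 34741 were matched to RefSeq by Entrez number. Each gene took its brightest single-gene probe set, and 12358 of 18193 genes with a mean above the 40th percentile (4.01) were tested. Named genes are the 10 with the smallest p among those without overlap in each direction, 4 per list with the smallest p, a fixed set, markers, and some chosen after their values were seen (Sdc1, Vldlr, Eif2ak3, Dnajc3, Atf4, Creld2, Hspa5, Ddit3, Xbp1, Junb, Inpp5d, Fcrl1, Stat5a, Socs3, Pou2af1, Ighm, Cdkn1b, Pim3, Hells, Uqcrb, Atp5g3). The members and the 38 lists (1329 entries, 129 without a named probe set) were chosen with earlier results of these data known. With 3 arrays a fraction, the smallest p that an exact permutation test allows is 0.1. The fit was tested on simulated data. Alternatives changed the filter, probe set choice, variance prior, array weights, normalization, threshold, arrays in the fit and the replicate number as a block. Figures were drawn with matplotlib 3.10.9.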

Additional observations from a re-analysis of the deposited data

How the results depend on the processing

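The count of 0 genes and 0 probe sets past the threshold held in all 15 refits for genes and 13 for probe sets, with smallest adjusted p between 0.453 (array weights) and 1 in limma. Without adjustment the threshold gives 396 genes and 1322 probe sets. The number of genes at an unadjusted p under 0.05 ranged from 280 (trend and robust prior) to 1332 (array weights), and leaving out single arrays gave 318 to 1053, the highest without GFP-positive array 3 (smallest adjusted p 0.472). Over probe sets the range was 682 to 4250, with 2947 without GFP-positive array 3. Deviations of same-numbered arrays correlated at 0.094, -0.036 and -0.090. With 3 arrays a fraction these values cannot decide whether same-numbered arrays came from the same mice. With the replicate number as a block, 0 genes and 0 probe sets passed, with 503 genes and 1565 probe sets unadjusted. Genes without overlap numbered 974 to 1498 (higher) and 526 to 1533 (lower) when 1 array was left out, against 497 and 297, where fewer arrays make separation easier by construction, and both highest counts came without GFP-positive array 3. Of 250 named genes 194 kept their sign in all alternatives, and 0 were called in any. Genes chosen because their arrays do not overlap cannot change sign when 1 array is left out. The median kept its sign in all alternatives for 12 of 38 lists, the HSC identity, granulocyte, erythroid, B cell, quiescence, insertion site, p53 and ER lists among them, and Rbl1, Hk1, Sdc1 and Ighm were among 16 named genes that changed sign with the mean of their probe sets.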

Other observations

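Ranked over all probe sets rather than 1 per gene, the first named probe sets belonged to Fgf3, Ccr2, St3gal6, Rad23b, Mycn and Trim41, chosen here by their rank. The probe set of Fgf3, a fibroblast growth factor, was at 5.14, 5.13 and 4.95 on the GFP-positive arrays and 3.46, 3.64 and 3.67 on the GFP-negative arrays. A second probe set of Ccr2, the monocyte chemokine receptor, was at 5.93, 5.64 and 5.36 on the GFP-positive arrays and 3.84, 4.26 and 3.95 on the GFP-negative arrays, a difference of 1.63 against 0.42 ± 0.43 for the brightest one. St3gal6, a sialyltransferase that makes selectin ligands, was at 2.96, 2.81 and 3.44 on the GFP-positive arrays and 6.01, 5.58 and 4.74 on the GFP-negative arrays. The limma adjusted p of each was 0.999.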
